A study of Mus musculus with 15 samples.

Results

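Metallothioneins and zinc transport were examined through 8 genes, Mt1, Mt2, Mtf1, Slc30a1, Slc39a1, Slc39a4, Slc39a8 and Slc39a14, in the lung of mice that develop dysplasia under a c-raf transgene. The members were all probe sets that the annotation of the array gives to 1 of these genes alone, which are 18 of 45037 probe sets. Tests were limited to probe sets averaging above 100 over the 15 arrays, which 12 of the 18 did, of 21658 on the whole array. Dysplastic foci and unaltered lung tissue (here called transgenic) were cut by laser microdissection from SP-C/c-raf mice aged 5 to 7 months, and both tissues came from the same animals. Lung of littermates without the transgene, aged 7 to 10 months, is called non-transgenic, and all mice were kept in the C57BL/6 background. The promoter of surfactant protein C drives the c-raf kinase in the respiratory epithelium, so that the transgenic tissue carries the transgene too. Each group has 5 arrays, the labels give 1 animal as the source of each sample, and genotype and age cannot be told apart where a group is set against non-transgenic lung.

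Metallothioneins are small cysteine-rich proteins that bind zinc, copper and cadmium and hold zinc in a form that cells can exchange. Their genes are switched on by Mtf1, a zinc finger protein that senses free zinc and binds metal response elements, and also by glucocorticoids and by interleukin-6 acting through Stat3. Proteins of the Slc30 family move zinc out of the cytosol and those of the Slc39 family, also called ZIP proteins, move it into the cytosol. In the mouse the cell surface exporter gene Slc30a1 is a known target of Mtf1, as are Mt1 and Mt2.

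The metal response element has the core TGCACNC or TGCGCNC, and its letters are shown for Mt1, Mt2 and Slc30a1 because these are the members named above as targets of Mtf1. Windows of 300 bases, 250 before and 50 after an annotated start, were taken from RefSeq for the build GRCm38.p6 and searched on both strands, and matches that overlap were counted separately. A window was at hand for 6 of the 8 genes, and Slc39a8 had 2. The Mt1 window held 3 matches, the Mt2 window 4 and the Slc30a1 window 2. The core is in capitals below, with 10 bases on each side, read 5′ to 3′ on the strand of the match.
Mt1, chr8:94179056-94179082, plus strand: ggtcccgctgTGCACACtggcgctcca
Mt1, chr8:94179081-94179107, plus strand: cagggagctcTGCACTCcgcccgaaaa
Mt1, chr8:94179099-94179125, plus strand: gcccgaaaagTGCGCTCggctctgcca
Mt2, chr8:94172385-94172411, plus strand: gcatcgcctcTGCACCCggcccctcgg
Mt2, chr8:94172480-94172506, plus strand: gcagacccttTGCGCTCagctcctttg
Mt2, chr8:94172558-94172584, minus strand: ggacagagccTGCACACgccctccccc
Mt2, chr8:94172612-94172638, minus strand: cccctgggccTGCGCACgacccgaatt
Slc30a1, chr1:191906728-191906754, minus strand: aactttgcttTGCACTCggaacccccg
Slc30a1, chr1:191906801-191906827, minus strand: ccgcggcgacTGCGCTCggcccggagg
Of all 32851 windows of this length, 25.7% held at least 1 match, 7.11% at least 2, 1.97% at least 3 and 0.517% at least 4. The Mtf1 and Slc39a1 windows held 0 matches, and the windows of Slc39a8 held 0 and 1. The start used for the window lies downstream of the annotated gene start for Mt1 and Slc30a1, so that the cores of all 3 Mt1 matches and of both Slc30a1 matches lie within the annotated genes. Of the 4 Mt2 matches, 1 has its core within the gene and the others lie before it. The Mt1 window began at 94178839 and the gene at 94178883, so little of the sequence before Mt1 was searched. A match is a description of letters and was not tested as a binding site.

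The authors scaled the arrays to a common target, and array means of the signal lay between 692 and 775. The labels of transgenic 2 conflict, since its title, which is marked as corrected, gives unaltered tissue and another entry tumor. This array was used by its title. Dysplasia 4 carried Xist together with Y-linked signal, so that a single animal is not established for it. By these transcripts 3 dysplasia arrays were male and 1 female, 4 transgenic arrays were male and 1 female, and 1 non-transgenic array was male and 4 female. Leaving out any single array, transgenic 2 and dysplasia 4 included, changed no call of a member. As a measure of RNA integrity the actin ratio, the signal of the 5′ actin probes in percent of the 3′ ones, centred on 57.1% in dysplasia, 38.9% in transgenic tissue and 31.0% in non-transgenic lung (medians) and spread over 12.5% to 75.2%. The 6 measured markers of alveolar type 2 cells, the cells in which the transgene promoter is active, summed to 99020 to 168100 in dysplasia, 96270 to 163100 in transgenic tissue and 89160 to 121600 in non-transgenic lung, and none was at 0. The 8 endothelial markers summed to 8367 to 13500 in dysplasia, 31050 to 41160 in transgenic tissue and 33610 to 45580 in non-transgenic lung, and all 8 were lower in dysplasia in both comparisons. None of the endothelial markers was at 0. Fewer cells of a type and less RNA per cell cannot be told apart in such bulk tissue.

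Both metallothionein genes were several-fold higher in dysplasia than in either kind of unaltered lung, and the zinc importer gene Slc39a4 was higher as well. The exporter gene Slc30a1 and the importer gene Slc39a14 were lower. Against transgenic tissue 3 of the 12 tested member probe sets were higher and 2 were lower (limma, adjusted p under 0.05), where 15.3% of all tested probe sets were higher and 17.9% lower. Against non-transgenic tissue 3 were again higher and 2 lower, where 20.7% of all tested probe sets were higher and 23.3% lower. The counts are of probe sets, and each of these 5 probe sets stands for a gene of its own. Groups did not overlap in 4 of the 12 against transgenic tissue, beside 25.3% of all tested probe sets, and in 5 of the 12 against non-transgenic tissue, beside 33.3%. The median log2 change of the 12 was -0.13 and -0.14 in these comparisons, beside -0.01 and -0.03 over all tested probe sets. Log2 change here is the difference in the log2 of the signal plus 50, a scale that makes the change of dim probe sets look smaller.

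Mt1 lies on chromosome 8 from 94178883 to 94180327 and encodes metallothionein 1. Its signal in dysplasia was 9355, 9958, 10605, 10401 and 13458 on arrays 1 to 5. In transgenic tissue it was 3132, 3117, 3369, 2770 and 3074. In non-transgenic tissue it was 1901, 1293, 1997, 2457 and 2454. Every dysplasia array lay above every other array, and every transgenic array lay above every non-transgenic array. The mean was 10755 ± 1585 in dysplasia, 3092 ± 214 in transgenic tissue and 2020 ± 480 in non-transgenic lung (SD, n = 5 each). The ratio was 3.48 against transgenic tissue, with a log2 change of 1.77 (standard error 0.11, adjusted p = 1.47e-06, limma). It was 5.32 against non-transgenic tissue, with a log2 change of 2.41 (standard error 0.17, adjusted p = 1.47e-06, limma).

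Mt2 is its neighbour on chromosome 8, from 94172618 to 94173567, and encodes metallothionein 2. Its signal in dysplasia was 4581, 7276, 6271, 5678 and 7485 on arrays 1 to 5. In transgenic tissue it was 1250, 1748, 1511, 1422 and 1365. In non-transgenic tissue it was 1510, 767, 1020, 1255 and 1015. The dysplasia arrays again lay above all others, whereas transgenic and non-transgenic arrays overlapped. Dysplasia averaged 6258 ± 1193, transgenic tissue 1459 ± 187 and non-transgenic tissue 1113 ± 281 (SD, n = 5 each). The ratio against transgenic tissue was 4.29 (log2 change 2.05, standard error 0.15, adjusted p = 3.44e-06, limma), and against non-transgenic tissue it was 5.62 (log2 change 2.45, standard error 0.18, adjusted p = 1.95e-06, limma). Among all 21658 tested probe sets the log2 change of Mt2 ranked 117 from the largest rise against transgenic tissue and that of Mt1 ranked 174. Against non-transgenic tissue the ranks were 133 for Mt2 and 141 for Mt1.

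**Figure D1:**
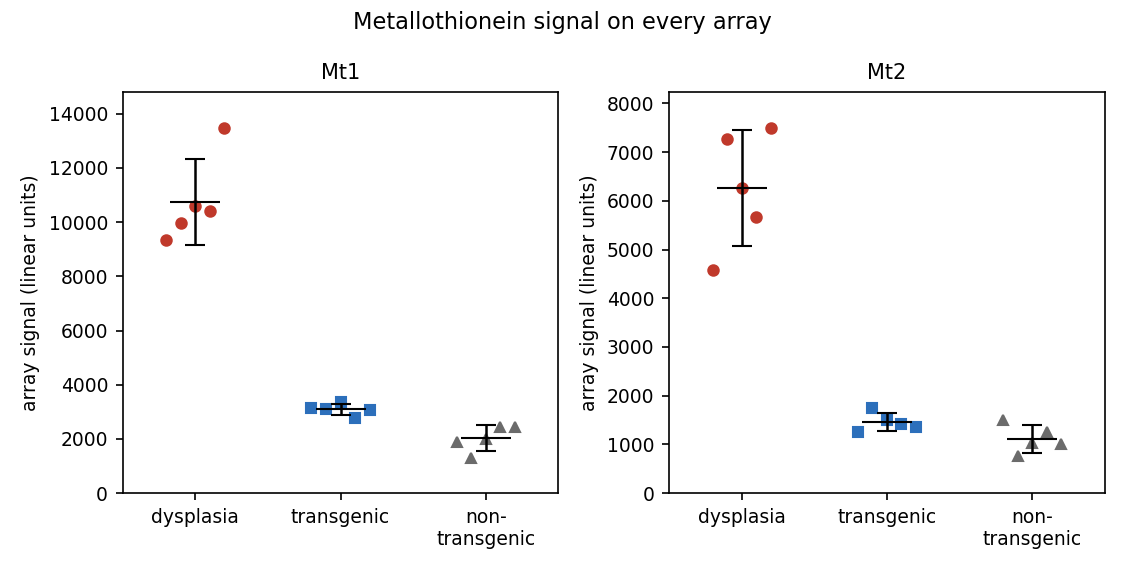
Signal of Mt1 and Mt2 on each of the 15 arrays (points, linear array units, in the order of the array numbers 1 to 5 within a group) with the mean and SD of each group (black bars, n = 5). For both genes all dysplasia arrays lie above all transgenic and non-transgenic arrays, and for Mt1 the lowest transgenic array, 2770, lies above the highest non-transgenic array, 2457.

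Within an array number, the ratio of dysplasia to transgenic signal ran from 2.99 to 4.38 for Mt1 and from 3.66 to 5.48 for Mt2. Number 5 had the highest ratio for both genes and number 1 the lowest. Arrays of the same number in these groups deviated together, although the sources used here do not state that a number marks a mouse. The name of the Mt1 probe set ends in a suffix that marks probes able to match several transcripts, so signal shared with other metallothionein genes was not tested. A second Mt1 probe set lay below the signal limit and was not tested. Its signal was 83.0 to 137 in dysplasia, 27.0 to 84.4 in transgenic tissue and 16.2 to 67.1 in non-transgenic lung. It overlapped between dysplasia and transgenic tissue by 1 array, transgenic 1, and did not overlap between dysplasia and non-transgenic tissue. The other metallothionein genes of the mouse, Mt3 and Mt4, were dim, with means of at most 38.5 and 13.7 in any group, and neither was tested.

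Transgenic tissue was compared with non-transgenic tissue to see what goes with the transgene outside the foci. None of the 12 member probe sets was called by limma, where 1.17% of all tested probe sets were higher and 0.0831% lower, and 2 of the 12 had an unadjusted p under 0.05. These were Mt1, with a ratio of 1.53 and a log2 change of 0.63 (95% interval 0.28 to 0.98, adjusted p = 0.0964, limma), and Mt2, with a ratio of 1.31 and a log2 change of 0.40 (95% interval 0.04 to 0.76, adjusted p = 0.348, limma). Of the 12, Mt1 alone had groups that did not overlap, beside 4.3% of all tested probe sets. Mt1 was called when all 3 groups were fitted together (adjusted p = 0.0456, limma) and when the actin ratio was a covariate (adjusted p = 0.0371, limma). Over 22 alternative settings its adjusted p ran from 0.0371 to 0.251, and it passed the threshold in 2. Transgenic and non-transgenic groups also differ in sex and age.

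Mtf1, the zinc sensor, was measured by 5 probe sets, of which 3 were tested and none was called. The brightest gave 570, 493, 541, 484 and 479 in dysplasia on arrays 1 to 5. In transgenic tissue it gave 695, 592, 584, 613 and 558, and in non-transgenic tissue 611, 671, 550, 489 and 561. The groups overlapped in every comparison, and the ratio of dysplasia to transgenic signal was below 1 at all 5 array numbers. The log2 change against transgenic tissue was -0.22 (95% interval -0.42 to -0.03, adjusted p = 0.0783, limma), and with the array number as a replicate block it was called (adjusted p = 0.0271, limma). Against non-transgenic tissue it was -0.15 (95% interval -0.36 to 0.06, adjusted p = 0.243, limma). The next brightest had log2 changes of -0.20 and -0.17 in these comparisons and the dimmest of the 3 had 0.03 and 0.01. The 2 untested probe sets averaged at most 41.9 and 7.51 in any group.

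Among the importers, Slc39a4 was higher in dysplasia. It encodes the ZIP protein of the intestinal epithelium whose loss causes the human zinc deficiency disease acrodermatitis enteropathica. Its signal in dysplasia was 2545, 2342, 3113, 2178 and 2627 on arrays 1 to 5. In transgenic tissue it was 1775, 1521, 1622, 1204 and 1091, and in non-transgenic tissue 1304, 1443, 1159, 916 and 997. All dysplasia arrays lay above all others, and transgenic and non-transgenic arrays overlapped. The ratio was 1.78 against transgenic tissue (log2 change 0.82, standard error 0.15, adjusted p = 0.00131, limma) and 2.20 against non-transgenic tissue (log2 change 1.11, standard error 0.14, adjusted p = 6.69e-05, limma). Within an array number the ratio of dysplasia to transgenic signal ran from 1.43 to 2.41.

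Slc39a14, whose ZIP protein also carries iron and manganese and is induced by interleukin-6 in the mouse liver, was lower in dysplasia. The tested probe set had 293, 259, 309, 269 and 305 in dysplasia. Transgenic tissue had 432, 336, 383, 357 and 426, and non-transgenic tissue 401, 397, 387, 331 and 414. The dysplasia arrays lay below all others. The ratio was 0.742 against transgenic tissue (log2 change -0.37, standard error 0.09, adjusted p = 0.0102, limma) and 0.743 against non-transgenic tissue (log2 change -0.37, standard error 0.09, adjusted p = 0.00487, limma). The first of these calls was lost under quantile normalization (log2 change -0.33, adjusted p = 0.0572, limma). It was also lost on male arrays alone, which are fewer (log2 change -0.38, adjusted p = 0.084, limma). The other 3 probe sets of Slc39a14 averaged at most 52.0, 31.2 and 23.3 in any group and were not tested.

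Slc39a1, a widely expressed importer of the cell surface, had 2450, 2318, 3894, 3886 and 3703 in dysplasia. It had 2275, 2284, 2660, 2778 and 3098 in transgenic tissue, and 2337, 1719, 2458, 2890 and 3015 in non-transgenic tissue. Dysplasia 3, 4 and 5 lay above every other array, while dysplasia 1 and 2 lay among the unaltered ones. The log2 change was 0.28 against transgenic tissue (95% interval -0.10 to 0.66, adjusted p = 0.254, limma) and 0.37 against non-transgenic tissue (95% interval -0.06 to 0.80, adjusted p = 0.154, limma), and neither was called. Against transgenic tissue it was called with the array number as a replicate block (adjusted p = 0.0399, limma) and with the actin ratio as a covariate (adjusted p = 0.0415, limma). With that covariate it was also called against non-transgenic tissue (adjusted p = 0.00653, limma). The actin ratio was 69.9% and 75.2% on dysplasia 1 and 2, and 28.9%, 57.1% and 25.1% on dysplasia 3, 4 and 5.

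Slc39a8, whose ZIP protein takes up zinc, manganese and cadmium, gave a strong signal in all 3 groups and was not called. Its brighter probe set had 7256 to 9339 in dysplasia (median 7733), 8500 to 10136 in transgenic tissue (median 8786) and 8259 to 9672 in non-transgenic tissue (median 9166). The groups overlapped. The log2 change was -0.19 against transgenic tissue (95% interval -0.40 to 0.03, adjusted p = 0.178, limma) and -0.18 against non-transgenic tissue (95% interval -0.38 to 0.03, adjusted p = 0.148, limma). The dimmer probe set, with 29.3 to 203 in dysplasia, 39.5 to 188 in transgenic tissue and 41.7 to 163 in non-transgenic lung, had log2 changes of -0.08 and -0.13 with intervals from -0.86 to 0.69 and from -0.88 to 0.61.

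Slc30a1, the exporter of the cell surface, was lower in dysplasia by its brighter probe set. The signal was 2072, 1703, 1820, 2300 and 2215 in dysplasia on arrays 1 to 5. It was 3080, 2115, 2830, 2937 and 2979 in transgenic tissue, and 2628, 2699, 2818, 2667 and 3206 in non-transgenic tissue. Dysplasia lay below all non-transgenic arrays, while transgenic 2 fell within the dysplasia range and the other 4 transgenic arrays above it. The ratio was 0.725 against transgenic tissue (log2 change -0.45, standard error 0.13, adjusted p = 0.0178, limma) and 0.721 against non-transgenic tissue (log2 change -0.47, standard error 0.10, adjusted p = 0.00385, limma). On male arrays alone, a restriction to fewer arrays chosen after the data were seen, the first of these calls was lost (adjusted p = 0.0994, limma). The log2 change there was -0.46. The dimmer probe set, at 166 to 272 in dysplasia, 206 to 307 in transgenic tissue and 187 to 323 in non-transgenic lung, had log2 changes of -0.22 and -0.27 and was not called (adjusted p = 0.244 and 0.21, limma).

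**Figure D2:**
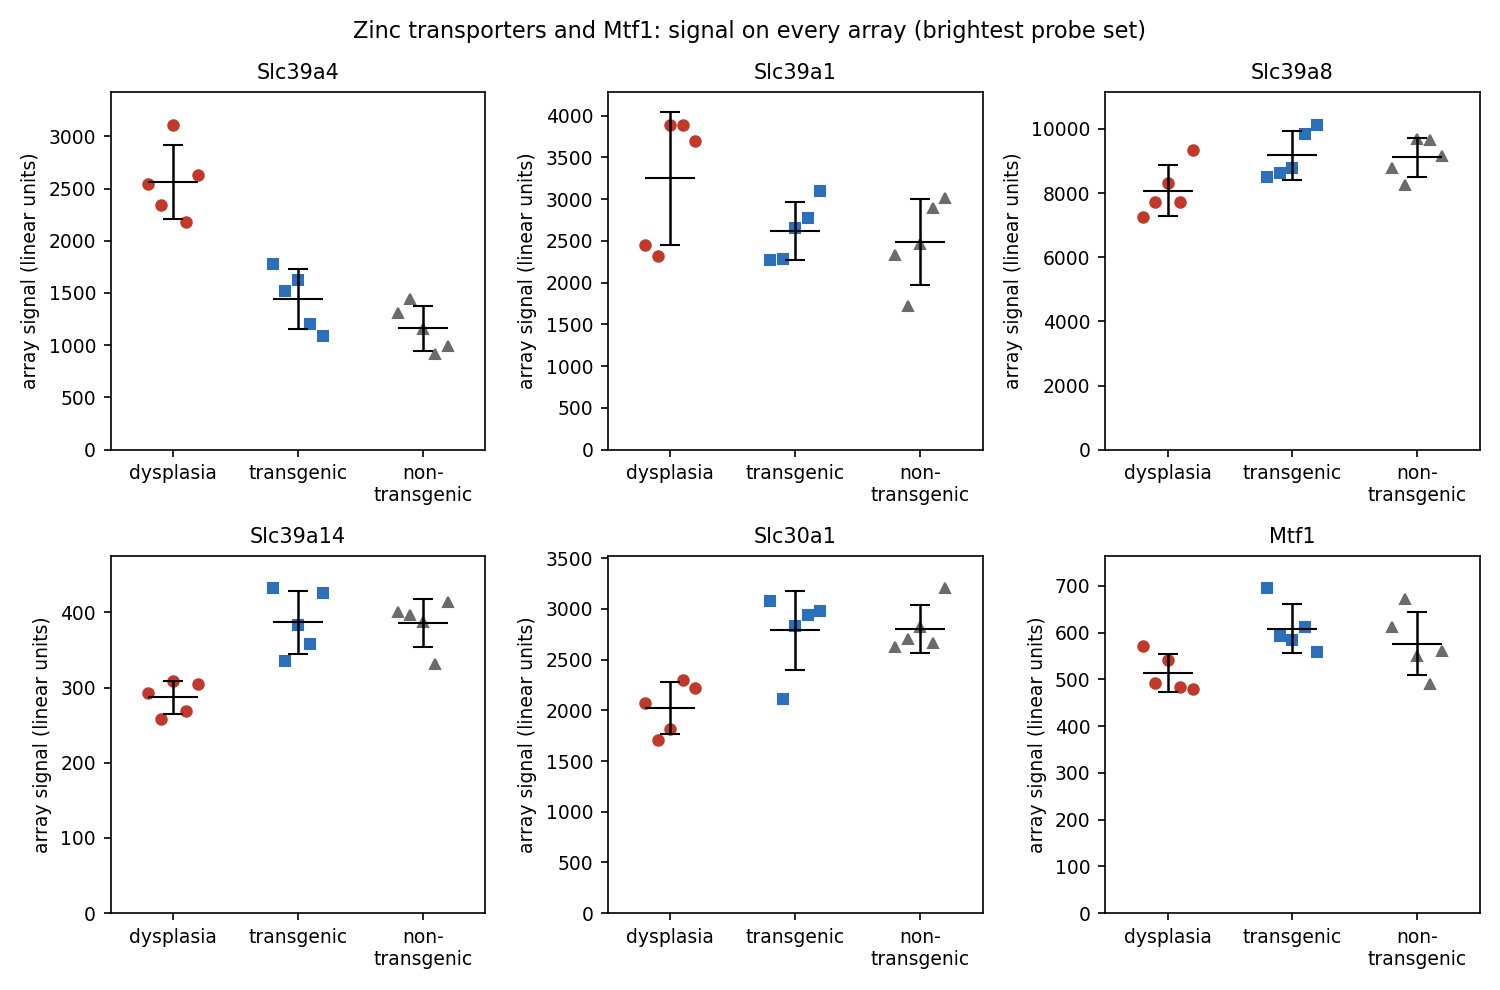
Signal of Slc39a4, Slc39a1, Slc39a8, Slc39a14, Slc30a1 and Mtf1 on each array (points, linear array units, brightest probe set of each gene) with mean and SD per group (black bars, n = 5). Slc39a4 lies higher on all dysplasia arrays, Slc39a14 lower on all of them, and the single low transgenic point of Slc30a1, 2115, is transgenic 2.

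**Figure D3:**
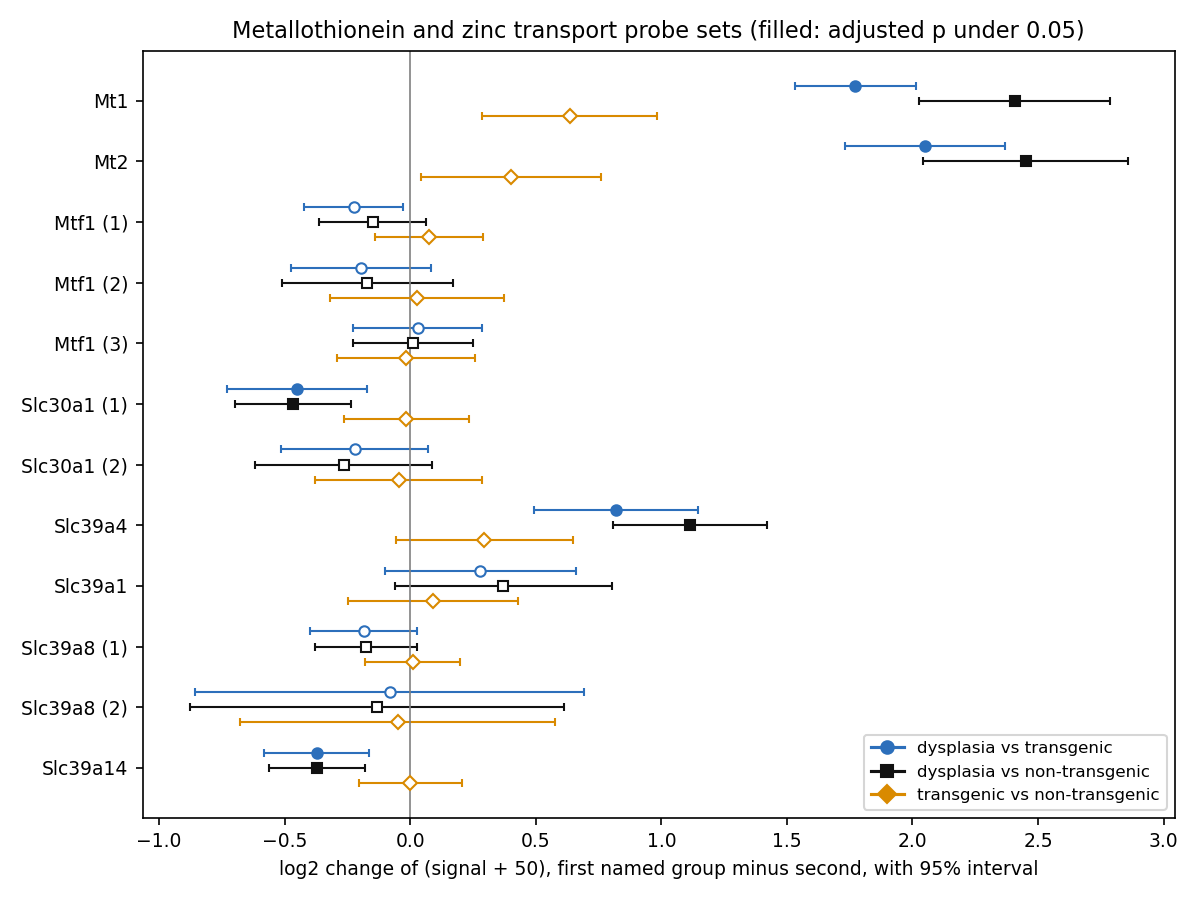
Log2 change of the signal plus 50 with its 95% interval for the 12 tested probe sets in the 3 comparisons (first named group minus second; filled where the adjusted p by limma is under 0.05; numbers in brackets order the probe sets of a gene from bright to dim). Mt1, Mt2 and Slc39a4 are filled to the right and Slc30a1 (1) and Slc39a14 to the left in both comparisons of dysplasia, and no symbol is filled for transgenic against non-transgenic tissue.

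Markers of other cell types differed in both directions between dysplasia and the unaltered tissues. The counts of markers are to be read beside the shares of all tested probe sets. These were 15.3% higher and 17.9% lower against transgenic tissue, and 20.7% higher and 23.3% lower against non-transgenic tissue. Besides the endothelial markers given above, 3 of 7 fibroblast markers were lower in dysplasia in both comparisons, with sums of 23360 to 30810 in dysplasia, 38250 to 46650 in transgenic tissue and 42760 to 46830 in non-transgenic lung. All 4 tested neutrophil markers were lower, with sums of 1414 to 2368 in dysplasia, 4176 to 9378 in transgenic tissue and 6224 to 13720 in non-transgenic lung. All 3 tested mesothelial markers were lower too, with sums of 264 to 611 in dysplasia, 1810 to 2369 in transgenic tissue and 1812 to 2559 in non-transgenic lung. Of 6 macrophage markers 1 was higher and 4 lower in dysplasia than in transgenic tissue, and 2 were higher and 1 lower than in non-transgenic lung, with sums of 8461 to 10210 in dysplasia, 8895 to 14250 in transgenic tissue and 5714 to 8318 in non-transgenic lung. Of 6 alveolar type 1 markers 1 was higher and 3 lower in both comparisons, with sums of 47550 to 76440 in dysplasia, 55230 to 90500 in transgenic tissue and 56010 to 76270 in non-transgenic lung. Club cells, the secretory cells of the airways, had 2 of 3 markers higher in dysplasia than in transgenic tissue and none called against non-transgenic lung. Their markers summed to 37450 to 69100 in dysplasia, 29310 to 36200 in transgenic tissue and 28600 to 51490 in non-transgenic lung. Of 2 tested ciliated cell markers 1 was higher and 1 lower in both comparisons, with sums of 2516 to 3811 in dysplasia, 3213 to 4689 in transgenic tissue and 3619 to 5633 in non-transgenic lung. The 1 tested liver marker was higher in both, and the 3 measured summed to 269 to 404 in dysplasia, 106 to 162 in transgenic tissue and 113 to 157 in non-transgenic lung. None of these markers was at 0, and Cxcr2 of the neutrophil list, Wt1 of the mesothelial list, Foxj1 and Ccdc39 of the ciliated list and Apoa2 and Ttr of the liver list averaged at most 100. The part of these cell types in the higher and the lower members was not tested. With the actin ratio or with Xist as a covariate Mt1, Mt2, Slc39a4, Slc30a1 and Slc39a14 were still called in both comparisons of dysplasia.

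Among the remaining zinc transporter genes of the mouse, calls ran in both directions. Of 19 genes, 14 had a tested probe set, and by the brightest one 3 were higher and 1 lower in dysplasia than in transgenic tissue, where 15.3% of all tested probe sets were higher and 17.9% lower. Against non-transgenic tissue 5 were higher and 3 lower, beside 20.7% and 23.3% of all tested probe sets. Their median log2 change was 0.08 and 0.15 in these comparisons, beside -0.01 and -0.03 over all tested probe sets. With the array number as a replicate block 7 of the 14 were called against transgenic tissue, beside 49.2% of all tested probe sets, the added genes being Slc30a4, Slc39a3 and Slc39a13. With the most variable probe set of each gene in place of the brightest, 2 were called, Slc30a7 and Slc39a11.

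Slc39a10, an importer of the cell surface, had 3407 to 4182 in dysplasia (median 3612), 1942 to 2388 in transgenic tissue (median 2261) and 1923 to 2271 in non-transgenic tissue (median 2214). Dysplasia did not overlap with either group. The ratios were 1.65 (log2 change 0.71, adjusted p = 0.000146, limma) and 1.73 (log2 change 0.77, adjusted p = 4.43e-05, limma). Its dimmer probe set had log2 changes of 0.80 in both comparisons and was called against non-transgenic tissue only (adjusted p = 0.0661 and 0.0347, limma).

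Slc39a11, whose product is a ZIP protein of intracellular membranes, had 995 to 1468 in dysplasia (median 1214), 570 to 777 in transgenic tissue (median 667) and 403 to 597 in non-transgenic tissue (median 582). Dysplasia again stood apart from both groups. The ratios were 1.81 (log2 change 0.80, adjusted p = 0.00035, limma) and 2.27 (log2 change 1.12, adjusted p = 5.39e-05, limma). Slc30a7, which loads zinc into the early secretory pathway, had 1490 to 2334 in dysplasia (median 1864), 1152 to 1553 in transgenic tissue (median 1297) and 1074 to 1511 in non-transgenic tissue (median 1354). These ranges overlapped slightly. Its ratios were 1.38 (log2 change 0.45, adjusted p = 0.0254, limma) and 1.42 (log2 change 0.49, adjusted p = 0.0143, limma), and its second probe set was higher in both comparisons as well, with log2 changes of 0.54 and 0.87. For the brighter probe set the call against transgenic tissue was lost without dysplasia 1, 3 or 5, without transgenic 3 or 5 and on male arrays only, a setting chosen after seeing the data, with adjusted p up to 0.123 (limma). On the male arrays, which are fewer, its log2 change was 0.45.

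Slc39a6, an importer named LIV-1 when it was found as an oestrogen-regulated gene of human breast cancer cells, was lower in dysplasia. It had 1051 to 1340 in dysplasia (median 1090), 1854 to 2590 in transgenic tissue (median 2077) and 2133 to 2637 in non-transgenic tissue (median 2341), with no overlap of dysplasia with either group. The ratios were 0.545 (log2 change -0.85, adjusted p = 0.000167, limma) and 0.49 (log2 change -1.003, adjusted p = 1.09e-05, limma). A dimmer probe set of Slc39a6 had log2 changes of -0.53 and -0.55 and was not called. Slc39a10 and Slc39a6 are close relatives within the ZIP family, and they moved in opposite directions.

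A further 4 genes were called against non-transgenic tissue only. Slc39a2 was higher, with 220 to 286 in dysplasia (median 251), 167 to 375 in transgenic tissue (median 237) and 82.6 to 170 in non-transgenic tissue (median 108). The transgenic arrays overlapped with those of dysplasia, and the lowest of them also with the highest non-transgenic array. Its log2 change was 0.86 in dysplasia against non-transgenic tissue (adjusted p = 0.000471, limma), 0.04 against transgenic tissue (adjusted p = 0.875, limma) and 0.81 in transgenic against non-transgenic tissue (adjusted p = 0.0667, limma). The last of these passed the threshold without transgenic 5 (adjusted p = 0.0381, limma), without non-transgenic 5 (adjusted p = 0.0432, limma), in the fit of all 3 groups (adjusted p = 0.0188, limma) and with the actin ratio as a covariate (adjusted p = 0.0482, limma). Slc30a4 was slightly higher in dysplasia than in non-transgenic tissue, with a ratio of 1.25 (adjusted p = 0.0349, limma). Slc30a9 and Slc39a3 were lower, with ratios of 0.774 (adjusted p = 0.0179, limma) and 0.727 (adjusted p = 0.0106, limma). The call of Slc30a4 was lost without dysplasia 3, 4 or 5, without non-transgenic 1, 3 or 4, at the same total signal, with Xist as a covariate and with number 4 left out of every group, a setting chosen after seeing the data, with adjusted p up to 0.152 (limma). The call of Slc30a9 was lost with Xist as a covariate (adjusted p = 0.0708, limma) and that of Slc39a3 under quantile normalization (adjusted p = 0.0617, limma). Against transgenic tissue Slc30a4 missed the threshold narrowly (adjusted p = 0.0504, limma), and whether the changes of these genes differ between the comparisons was not tested.

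**Figure D4:**
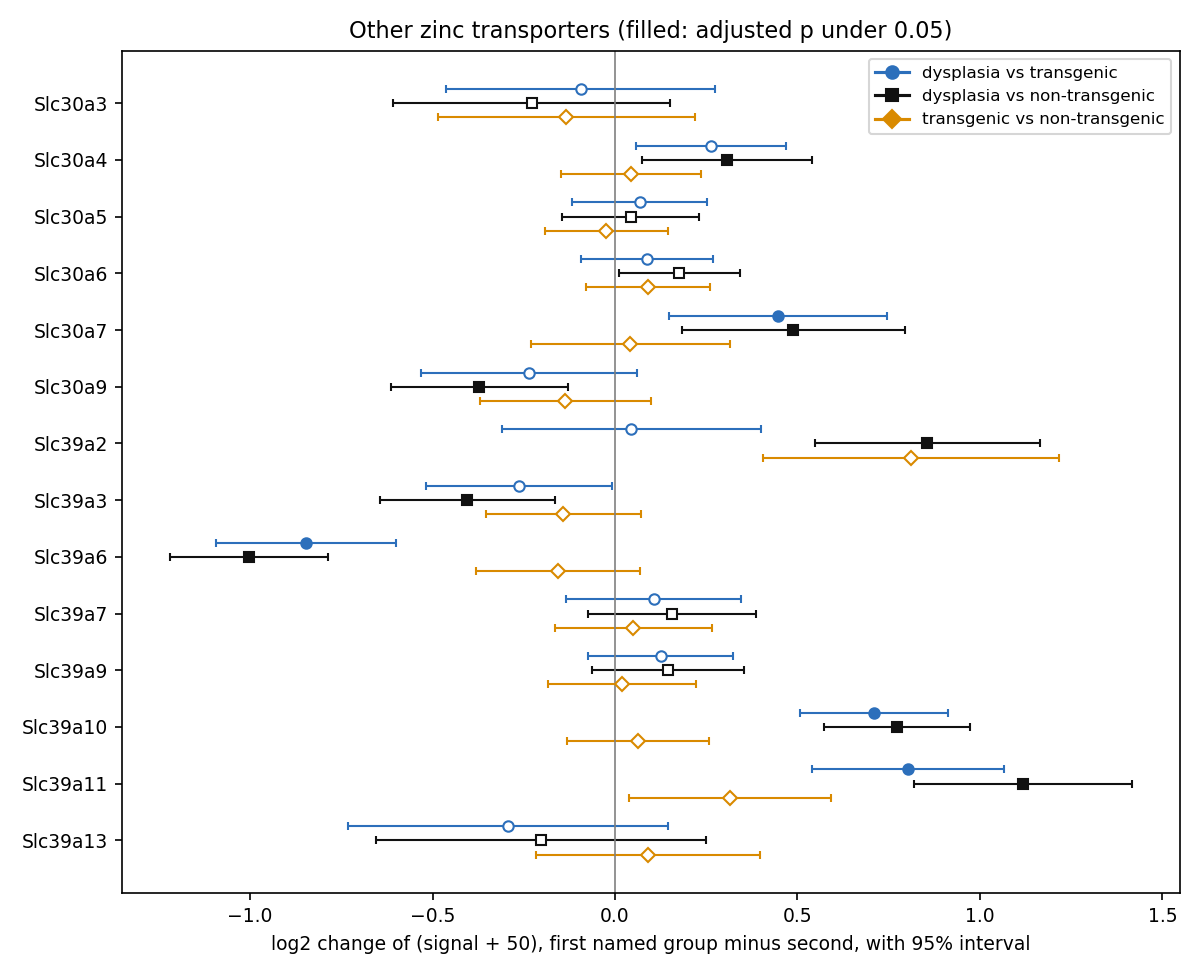
Log2 change of the signal plus 50 with its 95% interval for the 14 tested zinc transporter genes outside the 8 (brightest probe set, first named group minus second, filled where the adjusted p by limma is under 0.05). Slc39a10 and Slc39a11 lie to the right and Slc39a6 to the left in both comparisons of dysplasia, while Slc39a2 lies to the right against non-transgenic tissue for both dysplasia and transgenic tissue.

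Genes that handle other metals bound by metallothioneins or carried by ZIP proteins were counted in the same way. Of 10 copper genes, 3 were higher and 2 lower in dysplasia than in transgenic tissue, and 3 were higher and 3 lower than in non-transgenic tissue, with medians of 0.09 and 0.14 on the log2 scale. Atox1, the copper chaperone of the secretory pathway, averaged 8502 ± 1087 in dysplasia, 5256 ± 285 in transgenic tissue and 4660 ± 429 in non-transgenic lung (SD, n = 5 each), with log2 changes of 0.68 and 0.86 (adjusted p = 0.000461 and 8.89e-05, limma). The copper ATPase gene Atp7a was lower, with log2 changes of -0.58 and -0.78 (adjusted p = 0.00249 and 0.000118, limma). By their brightest probe sets Commd1, which takes part in copper export, was higher by 0.59 and 0.70 on the log2 scale, and Slc31a2, an intracellular copper transporter gene, by 0.37 and 0.49. The second tested probe set of Commd1 had log2 changes of 0.09 and -0.06 and was not called (adjusted p = 0.74 and 0.76, limma). That of Slc31a2 had 0.38 and 0.53 and was not called.

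Of 11 tested iron and manganese genes, 4 were higher and 3 lower in dysplasia than in transgenic tissue, and 5 were higher and 3 lower than in non-transgenic tissue, with medians of 0.24 and 0.23 on the log2 scale. Hmox1, the heme oxygenase that is induced by oxidative stress and by metals, had 1610, 1144, 1473, 1130 and 1192 in dysplasia on arrays 1 to 5. Transgenic tissue had 681, 835, 662, 572 and 652, and non-transgenic tissue 376, 350, 369, 458 and 448. The 3 groups were ordered without overlap, as for Mt1. The log2 change of Hmox1 was 0.89 in dysplasia against transgenic tissue (adjusted p = 0.000313, limma), 1.59 against non-transgenic tissue (adjusted p = 2.32e-06, limma) and 0.70 in transgenic against non-transgenic tissue (adjusted p = 0.0137, limma), where it was the 1 gene of its list that was called. The iron exporter gene Slc40a1 was higher in dysplasia, with ratios of 2.57 and 2.24 (adjusted p = 0.000554 and 0.000179, limma). The ferroxidase gene Heph was lower, with ratios of 0.345 and 0.26 (adjusted p = 6.92e-05 and 1.92e-06, limma), and Ncoa4, which directs ferritin to degradation, was lower with ratios of 0.564 and 0.675.

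Other inducers of metallothionein genes were followed through genes they are known to raise. Of 8 glucocorticoid-raised genes, 1 was higher and 2 lower in dysplasia than in transgenic tissue, and 2 were higher and 4 lower than in non-transgenic tissue, with medians of -0.68 and -0.69 on the log2 scale. Sgk1, a kinase gene, averaged 3626 ± 246 in dysplasia, 6960 ± 203 in transgenic tissue and 6402 ± 806 in non-transgenic lung (SD, n = 5 each), with log2 changes of -0.93 and -0.81 (adjusted p = 1.06e-05 and 7.15e-05, limma). Dusp1, a phosphatase gene of the immediate early kind, was lower by ratios of 0.516 and 0.522, and Errfi1, a feedback inhibitor gene of the EGF receptor, was higher by ratios of 1.61 and 1.77. Fkbp5 was called against non-transgenic tissue only, with a log2 change of 0.97 (adjusted p = 0.00533, limma) and 0.43 against transgenic tissue (adjusted p = 0.325, limma).

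Of 12 target genes of interleukin-6 and Stat3, 4 were higher and 2 lower in dysplasia than in transgenic tissue, 5 were higher and 3 lower than in non-transgenic tissue, and 2 were higher in transgenic than in non-transgenic tissue. Their medians were 0.12, 0.48 and 0.23 on the log2 scale in these comparisons. The 2 genes higher in transgenic tissue were Lcn2 and Fgl1. Lcn2, which encodes an iron-binding siderophore carrier of epithelia and neutrophils, averaged 14840 ± 2020 in dysplasia, 9801 ± 1162 in transgenic tissue and 4621 ± 951 in non-transgenic lung (SD, n = 5 each), and the log2 change of transgenic against non-transgenic tissue was 1.09 (adjusted p = 0.00589, limma). Fgl1, a gene known from the liver, had 263 to 508 in dysplasia, 73.3 to 265 in transgenic tissue and 3.14 to 45.0 in non-transgenic lung, near the background of the array. Timp1 was higher in dysplasia, with log2 changes of 0.84 and 1.07. By its brightest probe set Il6st, the gene of the shared receptor subunit gp130, was lower, with log2 changes of -0.94 and -1.11 (adjusted p = 0.000645 and 6.03e-05, limma). A dimmer Il6st probe set showed no such fall. Its group medians, ordered from dysplasia to non-transgenic, were 431, 338 and 431, with overlapping ranges. Another had medians of 83.1, 213 and 311 in that order. Many probe sets differed between dysplasia and the other groups, so these counts are to be read beside the shares of all tested probe sets given above.

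The genes whose pattern over the 15 arrays was most like that of Mt1 were Kctd14 (r = 0.994), Mapkapk3 (r = 0.985), Tmc4 (r = 0.984), Shmt1 (r = 0.984) and Snx4 (r = 0.984). For Mt2 they were Cdkn3 (r = 0.986), 0610040J01Rik (r = 0.984), Hpn (r = 0.983), Lad1 (r = 0.983) and Chl1 (r = 0.982). Each r is Pearson's on the log2 scale over 15 arrays in 3 groups and mostly reflects the step between groups, and no test was made. With the group means removed, r was 0.927 for Kctd14 with Mt1 and 0.734 for Cdkn3 with Mt2, the highest of each set. It ran from 0.646 to 0.704 for the other genes named for Mt1 and from 0.572 to 0.716 for those named for Mt2. The genes were chosen by r over these same arrays, so these values are not a separate check of likeness. Mt1 and Mt2 themselves had r = 0.973, and 0.543 with the group means removed. These arrays share their scaling, and arrays of the same number deviated together.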

How the data were processed

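RNA of microdissected lung was measured on Affymetrix mouse arrays, 5 per group and 1 per sample. The authors made the deposited intensity values in GCOS, scaled to a target signal of 500. The GCOS version was not given in the sources used here. On every array the mean trimmed by 2% at each end was checked to be 500. The ArrayTrack normalization of the methods is not part of these values, and detection calls, raw scans and SAM were not used here.

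Without the 64 controls the array holds 45037 probe sets, of which 34945 carry 1 gene symbol, 932 several and 9160 none. The table of GEO's platform annotation gave the symbols, and 34741 of them matched the GRCm38.p6 gene table, which gave gene positions. Probe sets with a mean signal above 100 were tested on log2(signal + 50) with limma 3.58.1 in R 4.3.3, 2 groups at a time and unpaired as in the methods, with Benjamini-Hochberg adjustment over all 21658 tested. The number of arrays limits the precision. The scripts were tested on simulated data.

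The members and lists were chosen with earlier results of these data known. The rule for named genes was to account for every member probe set, the brightest tested one leading, to give counts for each list with values for every called zinc transporter and for at most 4 genes of the other lists with the smallest p, and to name the 5 genes most like Mt1 and Mt2 by r.

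Array numbers run from 1 to 5 in each group, and per the methods each transgenic mouse gave both of its tissues. Deviations from the group means of same-numbered dysplasia and transgenic arrays correlated at 0.219 or more (mean 0.612, and -0.15 for different numbers), and those of transgenic and non-transgenic arrays at 0.135 or more (mean 0.452). For dysplasia and non-transgenic arrays the lowest was -0.00366 and the mean 0.405, and their numbers were not taken as pairs. Non-transgenic arrays come from other animals, so a number shared with them does not mark a mouse. What a shared number stands for was not tested. Paired fits, other offsets, normalizations, limits, covariates and subsets of arrays were the alternatives. P-values set the difference between groups against the spread between arrays within groups. Dysplasia and transgenic tissue came from the same mice, and the unpaired fit treats their arrays as independent.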

Additional observations from a re-analysis of the deposited data

Results flagged for a closer look

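In 2 of 36 groups of 5 arrays examined, 12 probe sets in 3 groups, a single array stood far from the other 4, and chance alone sets apart about 1 in 20 groups. For the brighter probe set of Slc30a1 the array was transgenic 2, at 2115, against 2830 to 3080 on the other transgenic arrays, and this gap was 0.774 of the whole range of the group. It is the array whose labels conflict. For the dimmer probe set of Slc39a8 the array was non-transgenic 5, at 41.7, against 130 to 163 on the other non-transgenic arrays. This gap was 0.801 of the range on the same log2 scale.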

How the results depend on the processing

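Mt1, Mt2 and Slc39a4 were called in both comparisons of dysplasia under all alternatives run (23 settings against transgenic and 22 against non-transgenic tissue), with log2 changes of 1.69 to 1.82 and 2.26 to 2.54 for Mt1, 1.98 to 2.16 and 2.33 to 2.57 for Mt2, and 0.73 to 0.90 and 1.04 to 1.19 for Slc39a4. No call changed for any member probe set when 1 array was left out. Of 801 alternative values of member probe sets, 47 had the other sign than the value reported, and 0 of these were called in either fit. With no signal limit the dim Mt1 probe set was called in both comparisons of dysplasia (log2 changes 0.69 and 0.73). On male arrays only, chosen after seeing the data, 3 member probe sets were called against transgenic tissue, against 5 on all arrays, and 4662 of all probe sets, against 7192. In transgenic against non-transgenic tissue 1 member probe set, Mt1, was called in the fit of all 3 groups and 1, again Mt1, with the actin ratio as a covariate, against 0. Over all probe sets this comparison called 272, but 110 with Xist as a covariate, 506 under the actin covariate, 81 when number 4 was dropped from every group (chosen after seeing the data) and from 118 to 291 when 1 array was left out, with 118 to 179 without transgenic 2 or 3 or non-transgenic 1, 2, 3 or 4. The cause was not tested. With the array number as a replicate block, 7, 6 and 0 member probe sets were called in the 3 comparisons, and 10661, 10741 and 329 of all probe sets (49.2%, 49.6% and 1.52%). In dysplasia against non-transgenic tissue, where the numbers were not taken as pairs, the replicate block added Slc39a1 (adjusted p = 0.0183, limma). Mtf1 was also called against transgenic tissue when arrays were set to the same total signal (adjusted p = 0.0359, limma), and Slc39a8 against non-transgenic tissue under quantile normalization (adjusted p = 0.0369, limma). The paired fits changed no other member call. Dim probe sets limit what can be said of Mt3, Mt4 and the second probe sets of Mt1, Slc30a1 and Slc39a8.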

Other observations

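Slc39a13 was among the zinc transporter genes that no comparison called without the array number in the fit, with means of 508, 615 and 577 in dysplasia, transgenic and non-transgenic tissue. Slc30a3 was dim, at 170, 184 and 207, and was not called either. Slc30a5, Slc30a6, Slc39a7 and Slc39a9 serve the secretory pathway or widely expressed intracellular membranes. Their log2 changes lay between 0.04 and 0.18 in both comparisons of dysplasia, and they were not called by the unpaired fit of the deposited signals. Under quantile normalization Slc30a6 was called against non-transgenic tissue, with a log2 change of 0.22 (adjusted p = 0.045, limma). Slc30a2, Slc30a8, Slc30a10, Slc39a5 and Slc39a12 had no tested probe set. Of the 6 macrophage markers, 2 were higher in transgenic than in non-transgenic tissue, where 1.17% of all tested probe sets were higher. In dysplasia 4 were lower and 1 higher than in transgenic tissue, and 2 were higher and 1 lower than in non-transgenic tissue.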
